A study of Rattus norvegicus with 12 samples.

Results

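NADPH-producing and pentose phosphate enzymes were followed in rat L6 cells, a skeletal muscle line grown as myoblasts and fused into myotubes. The 9 genes (Pgls, Pgd, Rpia, Taldo1, Tkt, Me1, Idh1, Idh2 and Ugdh) were found by matching the RefSeq transcript of each array probe to its rat gene symbol, and are 9 of the 16581 genes that could be named on the arrays in this way. All were measured by 1 probe each. Myotubes at 6 days of differentiation received GR24, a synthetic strigolactone analog, or the stilbenes pinosylvin or resveratrol, each at 60 µM for 24 h, while control cells received the DMSO solvent alone. Each of the 4 groups had 3 arrays from independent experiments on the same batch of cells, 12 arrays in all. The labels give 6 days, while the study's methods differ from them by a day.

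RNA was labelled with a single dye and hybridized to 12 rat gene expression arrays. Replicates 1 and 2 of every group shared a slide, and replicate 3 of every group was on another slide, so each slide held all 4 groups. Signal stood well above background at 59.5% to 64.3% of the spots on the control arrays, 58.0% to 62.5% with GR24, 60.2% to 62.0% with pinosylvin and 61.7% to 64.0% with resveratrol. All 9 probes were well above background on all 12 arrays, so none entered the test through 1 group alone. Levels are log2 signals relative to the 75th percentile of the probes of each array, and a level of 0 is a probe at that percentile. Levels of different genes are not comparable, since each probe binds with its own strength. The number of arrays limits the precision.

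NADPH is the reducing agent that cells spend on biosynthesis and on keeping glutathione and thioredoxin reduced. The pentose phosphate pathway branches from glycolysis. Its oxidative branch yields NADPH and a pentose phosphate, and its non-oxidative branch exchanges carbon between pentose phosphates and glycolytic sugars. Malic enzyme and the NADP-linked isocitrate dehydrogenases form NADPH from other substrates, in the cytosol or in mitochondria. Ugdh belongs to a neighbouring route and oxidises UDP-glucose to UDP-glucuronate with NAD, so it makes no NADPH.

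With GR24, 7 of the 9 genes were higher than in control cells and 2 were lower, at a Benjamini-Hochberg adjusted p below 0.05 over all 24279 probes tested. Among all those probes 31.5% were higher and 25.5% were lower, so a large part of the array changed with GR24. The 7 higher genes were Pgd, Rpia, Taldo1, Tkt, Me1, Idh1 and Ugdh, and the 2 lower genes were Pgls and Idh2. In all 9 the GR24 and control arrays did not overlap, which was so for 61.1% of all probes tested. In such bulk samples, fewer cells of a type and less RNA per cell cannot be told apart. The median log2 fold change of the 9 genes was 0.92, against 0.03 over all probes tested. Pgd, Taldo1, Tkt, Me1, Idh1 and Ugdh were picked by the study from these same arrays as genes raised by GR24, so their direction in that comparison is not independent evidence. Pgls, Rpia and Idh2 were not among its picks.

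In the oxidative branch, Pgls hydrolyses the lactone formed from glucose phosphate, and Pgd oxidises the product while forming NADPH. Pgd read 1.88, 1.74 and 1.66 on the control arrays and 3.71, 3.58 and 3.47 with GR24. Its levels were 2.04, 2.04 and 1.99 with pinosylvin and 3.15, 3.08 and 2.89 with resveratrol. Every GR24 array lay above every resveratrol array, and every resveratrol array above all pinosylvin and control arrays. Against control, Pgd rose with GR24 by 1.83 on the log2 scale (3.55-fold, SE 0.09, 95% confidence interval 1.62 to 2.03, adjusted p = 6.04e-08), in 3 of 3 arrays. On slide 1 alone the change was 1.83, and on slide 2, which held 1 array of each group, it was 1.81. With resveratrol Pgd rose by 1.28 (2.42-fold, SE 0.09, adjusted p = 1.66e-05).

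Pgls, the step before Pgd, moved the other way with GR24. Pgls read 2.74, 2.86 and 2.44 in control cells and 1.89, 1.83 and 1.84 with GR24. It stood at 2.77, 2.81 and 2.51 with pinosylvin and at 2.76, 2.68 and 2.42 with resveratrol. The GR24 arrays were the low ones, and the other groups overlapped, with replicate 3 the lowest array of the control, pinosylvin and resveratrol groups. With GR24 the difference from control was -0.83 (1.77-fold lower, SE 0.13, interval -1.11 to -0.54, adjusted p = 0.000246). It was -0.94 on slide 1 and -0.60 on slide 2.

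The non-oxidative branch is carried by Rpia, which interconverts pentose phosphates, and by Taldo1 and Tkt, which move carbon units between sugar phosphates. Rpia read 0.28, 0.24 and 0.39 in control cells and 1.35, 1.39 and 1.25 with GR24. With pinosylvin it read 0.22, 0.19 and 0.08, and with resveratrol 0.44, 0.48 and 0.38. The GR24 arrays were the highest and the pinosylvin arrays the lowest, and resveratrol overlapped control. The change with GR24 was 1.02 (2.03-fold, SE 0.07, adjusted p = 6.13e-07), with 1.10 on slide 1 and 0.85 on slide 2.

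Taldo1 read 4.32, 4.52 and 4.57 on the control arrays and 5.46, 5.61 and 5.42 with GR24. The pinosylvin arrays gave 4.24, 4.18 and 4.42 and the resveratrol arrays 4.78, 4.72 and 4.84. GR24 was highest, resveratrol next, and control and pinosylvin overlapped. Taldo1 rose with GR24 by 1.03 (2.04-fold, SE 0.09, adjusted p = 4.8e-06) and with resveratrol by 0.31 (1.24-fold, SE 0.09, adjusted p = 0.0433). The call with resveratrol was lost without the filter on dim probes (adjusted p = 0.131), and also without control replicate 1, where the change was 0.24 (adjusted p = 0.15). It was also lost with only the 6 arrays compared (adjusted p = 0.0859), on slide 1 alone (0.0586), and with the percentile taken over all spots (0.0546) or over probes well above background on all 12 arrays (0.0513).

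Tkt read 6.02, 6.35 and 5.84 in control cells and 7.01, 7.06 and 6.93 with GR24. Its levels with pinosylvin were 6.09, 6.24 and 5.96, and with resveratrol 6.92, 6.80 and 6.76. The GR24 and resveratrol arrays were high, and the pinosylvin arrays lay within the range of the control arrays. The log2 fold change was 0.92 with GR24 (1.90-fold, SE 0.12, adjusted p = 9.04e-05) and 0.75 with resveratrol (1.69-fold, SE 0.12, adjusted p = 0.00216).

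Outside the pentose phosphate pathway, Me1, cytosolic malic enzyme, converts malate to pyruvate with NADPH formed. Me1 read 5.24, 5.22 and 5.17 in control cells, 5.98, 6.00 and 5.84 with GR24, 5.59, 5.50 and 5.53 with pinosylvin, and 5.85, 5.88 and 5.71 with resveratrol. All 3 compounds lay above control on every array, and GR24 and resveratrol overlapped. Me1 rose with GR24 by 0.73 (1.66-fold, SE 0.07, adjusted p = 7.89e-06), with resveratrol by 0.61 (1.52-fold, SE 0.07, adjusted p = 0.00026) and with pinosylvin by 0.33 (1.26-fold, SE 0.07, adjusted p = 0.00922).

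The isocitrate dehydrogenases Idh1, in the cytosol and peroxisomes, and Idh2, in mitochondria, catalyse the same NADP-linked reaction. Idh1 read 2.30, 2.19 and 2.20 in control cells, 3.25, 3.29 and 3.19 with GR24, 2.35, 2.35 and 2.37 with pinosylvin, and 3.05, 3.02 and 3.05 with resveratrol. Idh2 read 5.93, 6.12 and 5.86 in control cells, 4.91, 4.94 and 4.81 with GR24, 5.96, 6.00 and 5.85 with pinosylvin, and 5.81, 5.85 and 5.66 with resveratrol. With GR24 all Idh1 arrays lay above the other groups and all Idh2 arrays below them. Idh1 rose with GR24 by 1.01 (2.02-fold, SE 0.06, adjusted p = 1.3e-07) and with resveratrol by 0.81 (1.75-fold, SE 0.06, adjusted p = 1.46e-05). Idh2 was lower with GR24, at -1.08 (2.12-fold lower, SE 0.09, interval -1.28 to -0.89, adjusted p = 2.04e-06). On slide 1 it was -1.10 and on slide 2 -1.05.

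Ugdh read 0.94, 0.74 and 0.84 in control cells, 1.45, 1.45 and 1.30 with GR24, 0.68, 0.59 and 0.58 with pinosylvin, and 0.98, 1.06 and 0.94 with resveratrol. GR24 gave the highest arrays and pinosylvin the lowest, with every pinosylvin array below every control array. Ugdh rose with GR24 by 0.56 (1.48-fold, SE 0.07, adjusted p = 8.51e-05).

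**Figure D1:**
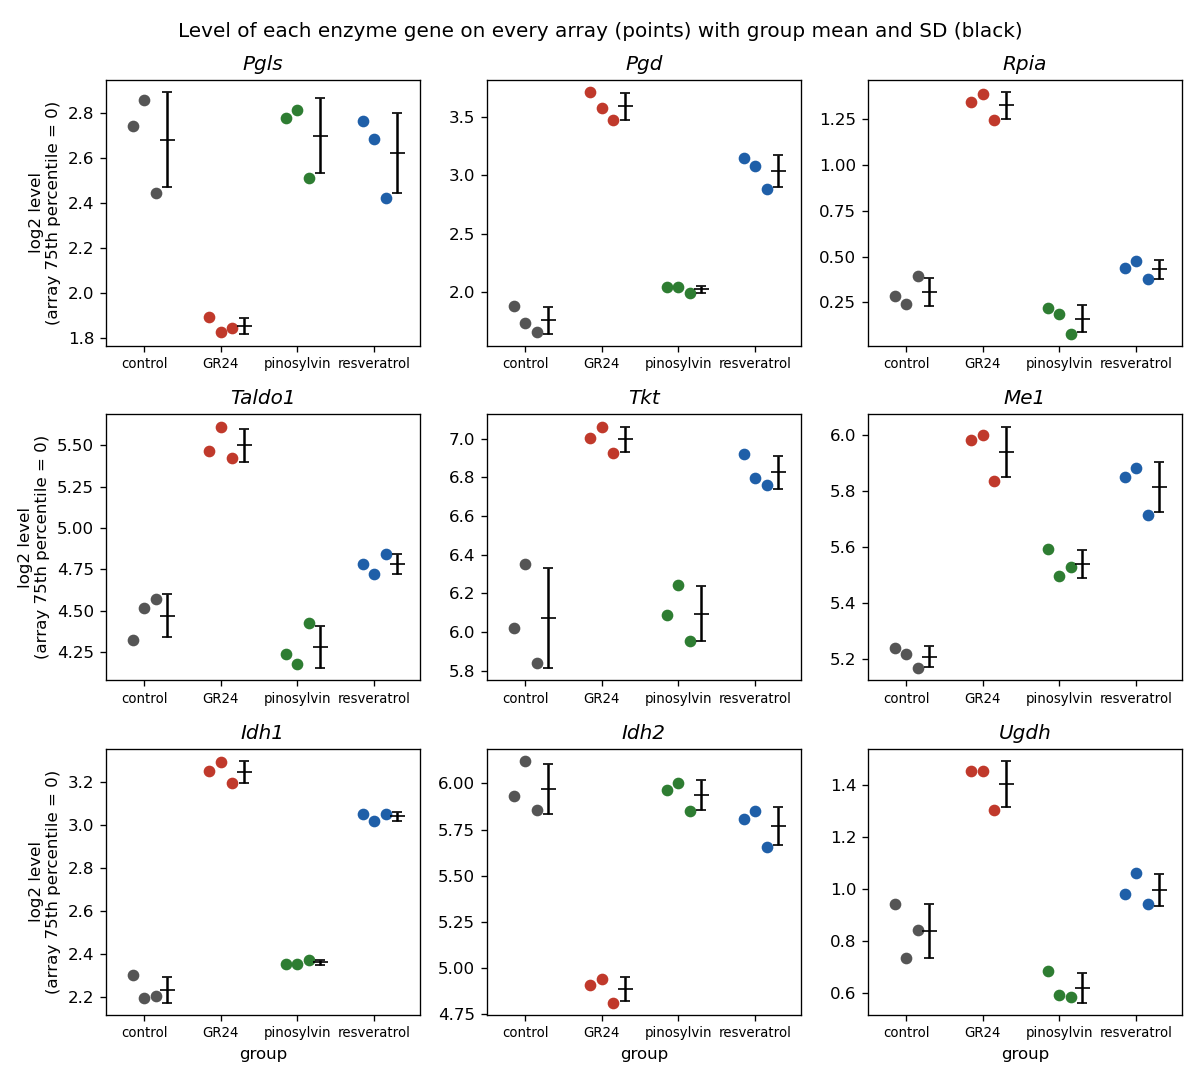
Level of each of the 9 genes on each of the 12 arrays (points), as log2 signal relative to the 75th percentile of the array, by group, with the group mean and SD in black (n = 3). The vertical axis differs between panels, the GR24 points of Pgls and Idh2 lie below those of the other groups, and the GR24 points of Pgd, Rpia, Taldo1, Tkt, Idh1 and Ugdh lie above them.

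With pinosylvin, 1 of the 9 genes passed the threshold, Me1, which was higher, while 8.28% of all probes were higher and 8.27% lower. The median log2 fold change of the 9 genes was 0.02, against 0.05 over all probes. Pgd differed from control by 0.27 (interval 0.06 to 0.47, adjusted p = 0.0747) and Ugdh by -0.22 (interval -0.39 to -0.05, adjusted p = 0.0738), and neither passed. Both passed in some other settings, among them quantile normalization, at adjusted p = 0.0412 for Pgd and 0.0495 for Ugdh. With the percentile over all spots the values were 0.0251 and 0.0459, and with slide as a block 0.0101 and 0.0298. With the replicate number as a block (replicate block) both passed, at adjusted p = 0.00758 for Pgd and 0.0338 for Ugdh, while the calls over all probes went from 2010 higher and 2009 lower to 3954 and 2993. Without the filter on dim probes those calls were 1026 and 1383. They were 1083 and 1396 with only the 6 arrays compared. Leaving out pinosylvin replicate 1 gave 1250 and 1639, and leaving out pinosylvin replicate 2 gave 1236 and 1572. Idh1 differed by 0.13 (interval 0.0015 to 0.25), Rpia by -0.14 (interval -0.30 to 0.01) and Taldo1 by -0.19 (interval -0.39 to 0.02). For Pgls the interval was -0.26 to 0.30, for Tkt -0.25 to 0.30 and for Idh2 -0.22 to 0.16.

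With resveratrol, 5 of the 9 genes were higher, Pgd, Idh1, Tkt, Me1 and Taldo1, and none was lower, while 7.99% of all probes were higher and 8.99% lower. Over all 9 genes the median change was 0.31, against 0.01 over all probes. Idh2 differed from control by -0.20 (interval -0.39 to -0.0061, adjusted p = 0.157). It passed under quantile normalization (adjusted p = 0.0244) and under normexp with quantile normalization (0.0242). With slide as a block it passed as well (0.024), also in the deposited series table (0.0113). In the replicate block it passed at adjusted p = 0.017, where the calls over all probes went from 1941 higher and 2182 lower to 3419 and 3350. Without the filter on dim probes those calls were 1070 and 1610. They were 1215 and 1623 with only the 6 arrays compared. Leaving out resveratrol replicate 1 gave 1192 and 1737, and leaving out resveratrol replicate 2 gave 1285 and 1673. Ugdh differed from control by 0.16 (interval -0.01 to 0.32, adjusted p = 0.201), Rpia by 0.13 (interval -0.03 to 0.28) and Pgls by -0.06 (interval -0.34 to 0.22). The 3 comparisons with control share the same control arrays.

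**Figure D2:**
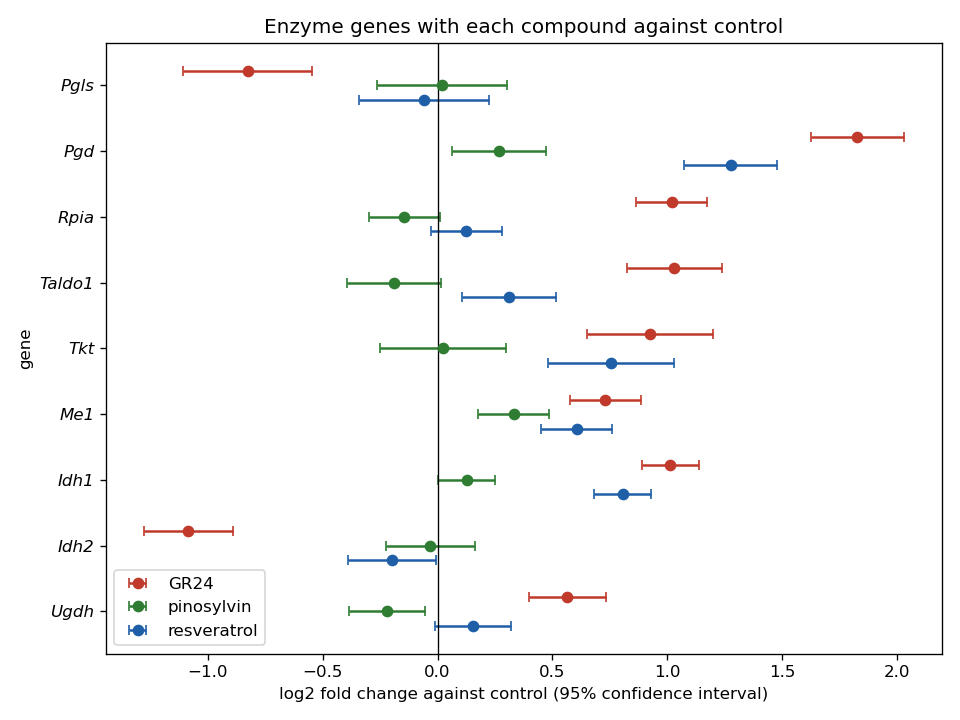
Log2 fold change of each of the 9 genes against control for GR24, pinosylvin and resveratrol, with 95% confidence intervals from the fit of all 12 arrays (n = 3 per group). With GR24 the intervals of Pgls and Idh2 lie below 0 and the other 7 above it, and Pgd has the highest value with GR24 and with resveratrol.

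Pinosylvin and resveratrol are both stilbenes. Resveratrol carries a further hydroxyl group, on the ring that is bare in pinosylvin. At matched dose and time, 7 of the 9 genes were higher with resveratrol than with pinosylvin and none was lower, while 6.85% of all probes were higher and 7.68% lower. These calls over all probes, 1664 higher and 1864 lower, went to 2816 and 3507 in the replicate block and to 903 and 1072 without the filter on dim probes. They were 1282 and 1224 without pinosylvin replicate 1, 1062 and 1086 without pinosylvin replicate 2, 1030 and 1207 without resveratrol replicate 2, and 1207 and 1104 without resveratrol replicate 3. Pgd differed by 1.01 (2.01-fold, SE 0.09, adjusted p = 7.92e-05), Tkt by 0.73 (1.66-fold, SE 0.12, adjusted p = 0.00327) and Idh1 by 0.68 (1.60-fold, SE 0.06, adjusted p = 5.19e-05). Taldo1 differed by 0.50 (adjusted p = 0.00517) and Ugdh by 0.37 (adjusted p = 0.00787). Me1 differed by 0.27 (adjusted p = 0.026) and Rpia by 0.27 (adjusted p = 0.0272). Both lost the call without the filter on dim probes, at adjusted p = 0.106 for Me1 and 0.11 for Rpia, with only the 6 arrays compared, at 0.0768 and 0.0718, and without pinosylvin replicate 2, at 0.097 and 0.0682. Leaving out resveratrol replicate 1 gave 0.0788 and 0.0726, resveratrol replicate 2 gave 0.0984 and 0.097, and pinosylvin replicate 3 gave 0.0667 and 0.087. For the genes that did not pass, the interval of the difference was -0.36 to 0.03 for Idh2 and -0.36 to 0.21 for Pgls. Idh2 passed in the replicate block (adjusted p = 0.0365).

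GR24, a compound of another structural class, was also compared with each stilbene. Against pinosylvin, 7 genes were higher and 2 lower with GR24, where 29.6% of all probes were higher and 26.8% lower. Against resveratrol, 5 were higher and 2 lower, where 27.4% were higher and 23.9% lower. The differences from resveratrol were 0.89 for Rpia (SE 0.07, adjusted p = 2.34e-06), 0.72 for Taldo1 (SE 0.09, adjusted p = 8.83e-05), 0.55 for Pgd (SE 0.09, adjusted p = 0.000511), 0.41 for Ugdh (SE 0.07, adjusted p = 0.000977) and 0.21 for Idh1 (SE 0.06, adjusted p = 0.0101). Idh2 differed by -0.89 (SE 0.09, adjusted p = 1.29e-05) and Pgls by -0.77 (SE 0.13, adjusted p = 0.000499). Me1 and Tkt did not pass, with intervals of -0.03 to 0.28 and -0.10 to 0.45. In the deposited series table both passed, at adjusted p = 0.017 for Me1 and 0.0399 for Tkt, and Idh1 lost its call without the filter on dim probes (adjusted p = 0.055). With the percentile over all spots the Idh1 difference was 0.32.

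In order of level, Pgd ran GR24, resveratrol, pinosylvin, control, and each neighbouring pair passed the threshold except pinosylvin and control. Idh1 had the same order and the same exception. Me1 had this order too, with GR24 and resveratrol as the pair that did not pass. These pairs are not shown to be alike: the interval of the pinosylvin difference from control lay above 0 for Pgd and Idh1, Pgd passed there in 7 of the alternative settings, and Me1 passed between GR24 and resveratrol in 6. For Idh2 the order was control, pinosylvin, resveratrol, GR24, and only the step from resveratrol to GR24 passed.

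The arrays carry 10 spots of the Rpia, Taldo1 and Idh2 probes, which shows the spread within an array. The SD over the spots of 1 array ran from 0.06 to 0.14 for Rpia, 0.04 to 0.07 for Taldo1 and 0.05 to 0.08 for Idh2. This is the spread of repeated spots and not that between replicates.

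Other pentose phosphate genes were taken from a list of 14, of which 10 were tested. With GR24, 5 were higher and 2 lower, where 31.5% and 25.5% of all probes were. Tigar, a fructose bisphosphatase-like regulator, rose by 1.19 (SE 0.11, adjusted p = 5.44e-06) and Shpk, sedoheptulokinase, by 0.96 (SE 0.15, adjusted p = 0.000284). Under normexp background correction the change of Shpk was 0.61 with the percentile and 0.64 with quantile normalization, and it passed in both. Prps2, which makes phosphoribosyl pyrophosphate, stood at -0.70 (adjusted p = 2.22e-05), while its paralogue Prps1 rose by 0.50 (adjusted p = 9.66e-05). H6pd, an enzyme of the endoplasmic reticulum, rose by 0.49 (adjusted p = 0.00127). Pinosylvin gave 1 higher and 4 lower (8.28% and 8.27% of all probes), with H6pd at -0.49 (adjusted p = 0.00625), Tigar at -0.37, Prps2 at -0.29, Pgm2 at -0.24 and Rbks, ribokinase, at 0.48. Resveratrol (7.99% and 8.99% of all probes) gave 1 higher, Rbks at 0.73 (adjusted p = 0.000327), and 1 lower, Pgm2 at -0.24 (adjusted p = 0.0356). Of the 27 alternative settings, the pinosylvin calls were lost in 13 for Tigar, 6 for Prps2 and 17 for Pgm2, and the resveratrol call of Pgm2 in 13. The pinosylvin count of 5 was 2 without control replicate 1, control replicate 2 or pinosylvin replicate 2. Prps2, Tigar and Pgm2 also lost their calls without pinosylvin replicate 1, at adjusted p = 0.105, 0.0715 and 0.114. Without the filter on dim probes the values were 0.109, 0.133 and 0.149, and with only the 6 arrays compared 0.124, 0.0974 and 0.0995.

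Of 18 other NADPH and linked genes, 15 were tested, and with GR24 4 were higher and 4 lower, a share near that of all probes (31.5% and 25.5%). Among the lower genes, Glud1 lost its call in 18 of the 27 alternative settings, and among the higher ones Idh3b and Acly in 4 each. The count of 8 was 5 without the filter on dim probes and without control replicate 3. Nnt, the mitochondrial transhydrogenase that forms NADPH from NADH, was lower, at -1.53 (SE 0.07, adjusted p = 5.06e-08). The cytosolic NAD kinase Nadk rose by 1.16 (adjusted p = 4.35e-06), while the mitochondrial Nadk2 had a change of -0.61 (adjusted p = 0.000115). Me2, a mitochondrial malic enzyme that uses NAD, rose by 0.64 (adjusted p = 1.66e-05), and Idh3g, a subunit of the NAD-linked isocitrate dehydrogenase, had a change of -0.41 (adjusted p = 0.00158). With pinosylvin 1 was higher and 2 lower (8.28% and 8.27% of all probes), and with resveratrol 2 were higher and 2 lower (7.99% and 8.99%). Nnt was lower with both, at -0.31 (adjusted p = 0.0187) and -0.26 (adjusted p = 0.0353), and lost these calls in 5 and 11 of the 27 alternative settings. Me2, the other gene lower with resveratrol, lost its call in 8, and without control replicate 1 neither Me2 (adjusted p = 0.0651) nor Nnt (0.112) passed there. The resveratrol count of 4 was 2 without replicate 1 or 3 of resveratrol or replicate 1 or 2 of control. In the replicate block 7 of the genes passed with pinosylvin and 9 with resveratrol, where 6947 and 6769 of the 24279 probes did.

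Around Ugdh, 10 other genes of the UDP-glucose, UDP-glucuronate and glucuronate routes were tested, and with GR24 2 were higher and 4 lower, beside 31.5% and 25.5% of all probes. Slc35d1, a transporter of nucleotide sugars, rose by 1.34 (adjusted p = 9.21e-06) and Cryl1, of the glucuronate route, by 1.04 (adjusted p = 2.75e-06). Under normexp background correction the change of Slc35d1 was 0.79 with the percentile and 0.83 with quantile normalization, and it passed in both. Has2, a hyaluronan synthase, had a change of -2.35 (SE 0.13, adjusted p = 1.28e-07). Ugp2, which makes UDP-glucose, the substrate of Ugdh, had a change of -0.41 (adjusted p = 0.000634). With pinosylvin 2 were higher and none lower (8.28% and 8.27% of all probes), and with resveratrol 1 was higher and 1 lower (7.99% and 8.99%). Cryl1 lost its pinosylvin call in 7 of the 27 alternative settings, among them without control replicate 1 (adjusted p = 0.0928), control replicate 3 (0.0829), pinosylvin replicate 1 (0.0512) or pinosylvin replicate 2 (0.1).

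All 14 NADPH users on the list were tested, and with GR24 9 were higher and 4 lower, against 31.5% and 25.5% of all probes. Nqo1, a quinone reductase, rose by 3.00 (SE 0.07, adjusted p = 3.55e-10), and Txnrd1, thioredoxin reductase, by 1.60 (adjusted p = 2.19e-07). Nox4, an oxidase, had a change of -1.79 (adjusted p = 1.32e-05) and Dhcr7, a sterol reductase, of -1.69 (adjusted p = 5.75e-06). The change of Nox4 was smaller under normexp background correction, at -0.83 with the percentile and -0.78 with quantile normalization, and was -1.12 in the deposited series table, and it passed in each. With resveratrol 6 were higher and 3 lower (7.99% and 8.99% of all probes), with Nqo1 at 2.08 (adjusted p = 1.15e-07) and Txnrd1 at 1.38 (adjusted p = 1.36e-05). With pinosylvin 3 were higher and 4 lower (8.28% and 8.27%), with Dhcr7 at -1.90 (adjusted p = 1.97e-05). Nqo1 had a change of 0.38 with pinosylvin (adjusted p = 0.00414).

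Over the 12 arrays, the genes outside the 9 whose levels followed Pgd most closely, among 10732 compared, were Nqo1 (Pearson r = 0.993), Bambi (0.989), Srxn1 (0.989), Slc2a3 (0.987) and Txnrd1 (0.985). The 12 points are 4 groups of 3 arrays, so these values describe the group differences.

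Markers of the cells moved as well. The 14 myotube markers on the array were well above background on all 12 arrays. With GR24, 11 of the 14 were lower and none higher (25.5% and 31.5% of all probes), among them Myog at -5.83 (adjusted p = 5.53e-10) and Acta1 at -3.88 (adjusted p = 2.4e-10). Their summed signal, in multiples of the 75th percentile, was 1039, 1120 and 969 in control cells and 425, 412 and 405 with GR24, with Myh3 the brightest probe. Such a sum adds the signals of probes that bind with different strength, so it follows the brightest of them. It was 1143, 1182 and 1121 with pinosylvin and 846, 849 and 815 with resveratrol, where 8 of the 14 were lower and none higher (8.99% and 7.99% of all probes). With pinosylvin 4 were higher and 1 lower (8.28% and 8.27%). Of the 4 higher, Tnnc2 lost its call in 18 of the 27 alternative settings. Its change of 0.25 was 0.086 under normexp with quantile normalization. In the replicate block 10 passed with pinosylvin, where 6947 of the 24279 probes did. Without the filter on dim probes 4 passed with resveratrol, where 2680 of all 45598 probes did. Of the 8 lower with resveratrol, 4 passed without control replicate 2, where Myog (adjusted p = 0.108), Myh3 (0.0615), Tnnc2 (0.115) and Cav3 (0.13) lost the call, and the same 4 lost it without resveratrol replicate 3. The count was 5 with only the 6 arrays compared, and without control, pinosylvin or resveratrol replicate 1 or pinosylvin replicate 2. The part of this change in the enzyme genes was not tested.

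Of 6 tested myoblast and cycling cell markers, 1 was higher and 3 lower with GR24, 4 lower with pinosylvin and 2 lower with resveratrol. Of the 4 lower with pinosylvin, Id2 lost its call in 7 of the 27 alternative settings. It did so without control replicate 1 (adjusted p = 0.0971), control replicate 2 (0.0635), pinosylvin replicate 1 (0.0787) or pinosylvin replicate 3 (0.0838). The shares of all probes, higher and lower, were 31.5% and 25.5%, 8.28% and 8.27%, and 7.99% and 8.99%. Mki67 had changes of -2.83, -1.65 and -0.81, and Id2 was the gene that was higher with GR24, by 1.22 (adjusted p = 9.93e-07). Their summed probe signal, with Vim the brightest probe, was 196, 195 and 177 in control cells, 97.5, 99.4 and 88.9 with GR24, 132, 136 and 123 with pinosylvin, and 123, 129 and 117 with resveratrol. Of 7 fibroblast markers, 6 were lower and 1 higher with GR24, 2 and 2 with pinosylvin, and 1 and 1 with resveratrol, beside the same shares of all probes. Of the GR24 calls, that of Pdgfra, the higher gene, was lost in 8 of the 27 alternative settings and that of Dcn in 9, and both were lost without control replicate 3 (adjusted p = 0.0643 and 0.0665) or GR24 replicate 1 (0.0643 and 0.0524). Pdgfra also lost it without GR24 replicate 2 (0.0569), and Dcn without control replicate 1 (0.129) or GR24 replicate 3 (0.115). Their summed probe signal, with Col1a2 the brightest probe, was 489, 530 and 492 in control cells, 295, 302 and 285 with GR24, 463, 493 and 493 with pinosylvin, and 428, 444 and 440.0 with resveratrol. Adipoq, Cidec, Lep and Ptprc were well above background on none of the 12 arrays, Fabp4 on 2, Kdr on 4 and Pecam1 on 5. Pecam1 had mean levels of -6.23 in control cells, -4.46 with GR24, -4.59 with pinosylvin and -5.60 with resveratrol. The filter on dim probes kept Pecam1 out of the main fit. Over the 27 alternative settings, 0 to 2 of the 3 endothelial markers passed with GR24. Cd68, which is also made outside leukocytes, rose with GR24 by 2.67 (adjusted p = 4.11e-07), and the endothelial marker Cdh5 passed in no comparison with control, though it did in the replicate block with GR24 and with resveratrol. The part of these markers in the changes of the 9 genes was not tested.

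Promoter windows of 300 bases around a start of the gene were taken from RefSeq (build GRCr8) for 8 of the 9 genes, all but Pgls. Of 33460 windows compared with the start listed for the whole gene, 19334 began 250 bases before it. The core of the antioxidant response element, TGACNNNGC, was searched on both strands, with the AP-1 site TGACTCA, which can overlap it. The core was found in 3 of the 8 windows, those of Me1, Idh1 and Ugdh, and in 12.1% of all 33469 promoter windows. The AP-1 letters were found in 1 of the 8, that of Me1, and in 4.63% of all windows. A match is a run of letters and no measured site. These 3 windows are shown because they hold a match to the core, given in capitals: Me1 at chr8:96540195-96540494 on the minus strand, Idh1 at chr9:74049425-74049724 on the minus strand, and Ugdh at chr14:43202268-43202567 on the plus strand, where the match is on the opposite strand.
Me1: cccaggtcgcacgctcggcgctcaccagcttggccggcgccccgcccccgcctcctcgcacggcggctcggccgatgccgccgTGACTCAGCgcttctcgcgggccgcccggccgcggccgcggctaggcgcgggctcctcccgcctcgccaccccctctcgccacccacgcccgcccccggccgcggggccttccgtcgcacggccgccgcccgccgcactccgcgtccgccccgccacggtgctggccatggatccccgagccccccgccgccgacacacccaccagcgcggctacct
Idh1: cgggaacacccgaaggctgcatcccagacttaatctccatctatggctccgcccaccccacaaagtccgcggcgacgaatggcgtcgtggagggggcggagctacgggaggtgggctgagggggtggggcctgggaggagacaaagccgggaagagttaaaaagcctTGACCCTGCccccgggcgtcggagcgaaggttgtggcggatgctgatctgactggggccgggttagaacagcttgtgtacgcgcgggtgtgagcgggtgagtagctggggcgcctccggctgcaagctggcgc
Ugdh: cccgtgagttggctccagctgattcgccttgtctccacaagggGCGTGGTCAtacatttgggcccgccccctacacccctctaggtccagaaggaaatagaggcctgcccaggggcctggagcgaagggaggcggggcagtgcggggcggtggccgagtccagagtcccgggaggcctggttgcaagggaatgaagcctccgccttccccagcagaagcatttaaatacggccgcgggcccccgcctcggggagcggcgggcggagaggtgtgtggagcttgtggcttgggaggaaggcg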

How the data were processed

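Expression was measured on 12 single-colour rat arrays. The deposited scanner files hold intensity values, background subtracted by Agilent Feature Extraction 12.0.0.7 per the file headers. The deposited series table holds log2 values that the authors normalized with limma by a method they do not state, and it was used only as an alternative.

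Spots marked as outliers were left out, the log2 signals of a probe's spots were averaged, and the 75th percentile over all non-control probes of each array was subtracted. Probes that stood well above background in every array of 1 or more groups (24279 probes) were fitted over the 12 arrays, with a mean per group, in limma 3.58.1 (R 4.3.3), two-sided, with Benjamini-Hochberg adjustment at 0.05. A probe counted as well above background where at least 0.5 of its spots did. Genes were named through RefSeq transcripts, which named 46.3% of the probes. A gene with several probes was represented by the one with the highest mean. Text names all 9 genes, the largest changes of up to 5 called genes per other list whose arrays did not overlap, some further genes chosen after their values were seen, and the 5 genes most correlated with Pgd. A few genes chosen in this way are left out of the text.

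Whether equal replicate numbers pair arrays was checked on the deviations from group means: correlations were 0.227 to 0.831 for the same number, 0.279 to 0.615 for other numbers on a slide and -0.767 to -0.375 between slides. Within a group the deviations cancel out, so the negative values between slides follow from the positive ones within a slide and are no separate result. Since numbers 1 and 2 share a slide, pairing and slide cannot be told apart for number 3. The study's methods name no block, so the main fit had none, and the replicate block was an alternative, printed where it changed a call. The main fit thus counts differences shared by the arrays of a slide as spread. With the block, 6947 probes passed with pinosylvin against control instead of 4019, and 6769 instead of 4123 with resveratrol. A gene that did not pass in the main fit is therefore not shown to be unchanged.

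Alternatives were normexp background correction (offset 50) on median spot signals, since the files hold no mean signals, other normalizations, filters and fits, both slides apart, and each array left out. Others were chosen after seeing the data: the percentile over spots or over probes well above background on every array, outlier spots kept, and the series table with slide as a block. The genes and lists were chosen with earlier results of these data known. The fit was tested on simulated data, and the outcome of that test is not reported here.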

Additional observations from a re-analysis of the deposited data

How the results depend on the processing

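All 9 genes kept direction and call with GR24 against control and against pinosylvin under every alternative that gave a test, leaving out each array included. With pinosylvin against control the count of 1 gene became 2 under normexp with quantile normalization, in the deposited series table, under trend and robust eBayes and with the percentile over probes well above background on all 12 arrays. It became 3 under quantile normalization, in the replicate block, with slide as a block, with the percentile over all spots and in the series table with slide as a block. The cause was not tested. Beyond the calls named with the results, the replicate block changed no call of the 9 genes.

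Among the 9 genes, signs turned only for values that passed in no setting, and Rpia with resveratrol against control was -0.02 on slide 2. With pinosylvin against control Pgls was -0.014 under normexp with quantile normalization, -0.0024 under quantile normalization and -0.0042 on slide 1, and ran from -0.10 to 0.11 with each array left out. Tkt was -0.042 under normexp with the percentile, -0.12 under normexp with quantile normalization, -0.075 under quantile normalization, -0.12 in the series table with or without slide as a block and -0.022 on slide 1, and ran from -0.092 to 0.16 with each array left out. Idh2 ran from -0.088 to 0.044 with each array left out. Pgls ran from -0.18 to 0.042 with resveratrol against control and from -0.17 to 0.024 with resveratrol against pinosylvin.

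Leaving out an array gave 4 or 5 genes with resveratrol against control. Taldo1 lost its call there without replicate 1 of any group, without replicate 2 of control, pinosylvin or resveratrol, and without resveratrol replicate 3. With resveratrol against pinosylvin the count was 5 to 7. Of 116 called changes of the other lists, 89 kept call and direction in all settings run, and 0 turned sign. The percentile over all spots moved the median over all tested probes from 0.03 to 0.13 with GR24 against control, where the calls went from 7658 higher and 6196 lower to 9223 and 5358. It moved the median from 0.02 to 0.14 with GR24 against resveratrol, where the calls went from 6662 higher and 5811 lower to 8707 and 4875. A mean over all probes of a gene could not differ here, since each of the 9 genes has 1 probe. Slide 2 holds 1 array per group, so it gave values with no test. No spot was saturated, and signal over background did not limit the 9 probes.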
